A study of Bos taurus with 16 samples.

Results

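AGO2, the gene of argonaute 2 (ENSBTAG00000001579), carried 103 of the 199395 cytosine positions with a deposited methylation value in endometrial cells of dairy cows. The 103 sites are all positions that the deposited table annotates to AGO2, and among these none was chosen by its value. The study had itself discarded positions with a zero value or without a valid value, and it names AGO2 among its differentially methylated genes. They lie on chromosome 14 of the bovine genome build ARS-UCD1.2, between positions 3067516 and 3136772, a span of 69.3 kb. The methylation level is the percent of reads at a site that kept a cytosine after bisulfite treatment, which converts unmethylated cytosine. It was measured by reduced representation bisulfite sequencing (RRBS), which reads mainly CpG-rich fragments of the genome.

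The cells were collected with a cytobrush from the uterus of multiparous Holstein-Friesian cows, 4 to 8 h after artificial insemination at 50 to 64 days postpartum. The cows had received a control diet (CON) or, from day 12 postpartum, a daily supplement of rumen-protected methionine (MET), and the insemination had either resulted in pregnancy (P) or not (noP). The 4 groups were named MET_noP, MET_P, CON_noP and CON_P, with 4 libraries each, named here by their library numbers. All cows had been inseminated before sampling, so no group shows the tissue without insemination. A cytobrush takes a mixture of cells from the uterine surface. The study isolated DNA from more cytobrush samples than there are libraries, and from more of them in the noP than in the P groups, but whether libraries were pools, or how many cows each holds, is not stated in the sources used here, and the p-values below measure only the spread between these libraries.

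Argonaute proteins bind small RNAs such as microRNAs and use them to find matching messenger RNAs. Argonaute 2 is the member of the family that can itself cut the target, and it forms the core of the RNA-induced silencing complex (RISC). Methylation inside a gene is usually high along transcribed regions and low at CpG-rich promoters. Methionine is the precursor of S-adenosylmethionine, the methyl donor of DNA methyltransferases.

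The lowest AGO2 value in any library was 10%. The authors had discarded positions with a zero value or without a valid value. Fully unmethylated positions are therefore not covered, and positions of low methylation may be missing as well. At least 10 reads were required per position, but read numbers per position were not used here, so the depth behind each percentage is unknown and no interval for counting error can be given. The mean over all 199395 sites ranged from 61.3% to 65.1% among the 16 libraries. The deposited table does not give strand, exons or the transcription start, so positions below are in ascending order and carry no direction of transcription. The study's annotation places positions 3077819 and 3077871 in an intron. Sequences of the sites are not shown, as the genome of this build was not used here.

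AGO2 was highly methylated at most of its sites, with several stretches at intermediate levels. The median of its 103 site means was 88.5%, compared with 77.5% over all sites. A mean over 90% was found at 48 AGO2 sites (46.6%, against 36.8% of all sites), a mean of 50% to 90% at 31 (30.1%, against 26.7%) and a mean of 20% to under 50% at 24 (23.3%, against 19.1%). None of the 103 sites had a mean under 20%, a level held by 17.4% of all sites. As positions with a zero value had been discarded, this does not show that the gene lacks such positions. The lowest mean was 28.2% at position 3077914 and the highest 99.6% at position 3068939.

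The sites fell into 17 stretches when a gap of over 500 bp was taken as a boundary, and 14 of these held 3 or more sites. The largest gap, 12116 bp, divided the gene into sides of nearly equal length with different levels. The side with lower positions (3067516 to 3096079, 28.6 kb) held 66 sites in 11 stretches with a mean of 66.3%, and the other side (3108195 to 3136772, also 28.6 kb) held 37 sites in 6 stretches with a mean of 92.6%. All 24 sites with a mean under 50% were on the first side. On the second side only 4 sites had a mean under 80%, and these 4 neighbours (positions 3126730, 3126755, 3126771 and 3126778, with means of 59.0%, 71.0%, 67.4% and 72.1%) formed the beginning of a 15-site stretch whose other 11 sites were above 90%.

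**Figure D1:**
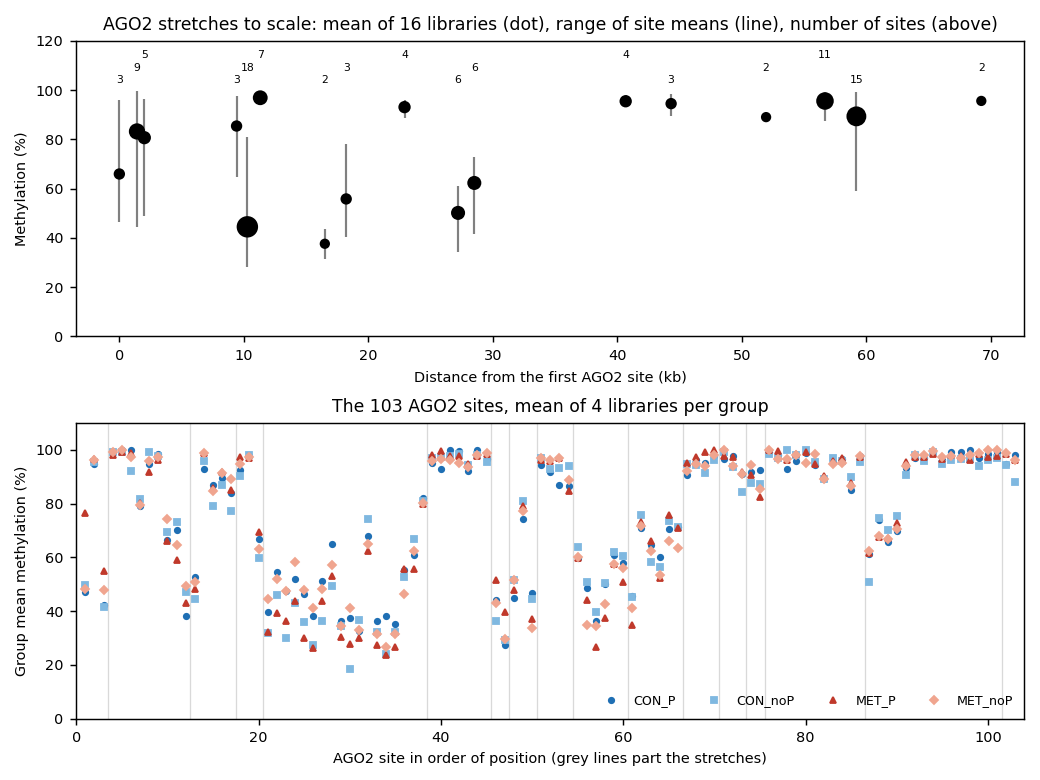
Methylation of AGO2 along the gene. The upper panel plots the 17 stretches against the distance in kb from the first AGO2 site, with the mean of the 16 libraries as a dot, the range of site means as a line and the number of sites above it. The lower panel plots the mean of each group (4 libraries) at each of the 103 sites in order of position. Levels of 28.2% to 80.9% stand in the 18-site stretch, directly beside a 7-site stretch at 93.7% to 98.6%.

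Going up the coordinates, the first stretch (3067516 to 3067526, 3 sites) alternated steeply. Its means were 55.4% at 3067516, 95.7% at 3067519 and 46.6% at 3067526, so that the level differed by 40.4 percentage points over 3 bp and by 49.1 points over 7 bp. The next stretches, at 3068933 to 3068996 (9 sites) and 3069522 to 3069574 (5 sites), had means of 83.2% and 80.7%. In the second of these, 3069522 stood at 49.0% and 3069536, 14 bp further, at 96.5%. In the 9-site stretch the site means went from 98.9% at its first position to 44.3% at its last, 3068996, where CON_P library 26 gave the lowest AGO2 value of all, 10%. Of the 69 pairs of neighbouring AGO2 sites at most 20 bp apart, 7 (10.1%) differed by more than 30 points in mean level. The share was 2.42% among the 107931 such pairs of the whole table. These are descriptions over sites that share reads and have no test.

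A 3-site stretch at 3076934 to 3076965 had a mean of 85.4%. It was followed by the longest run of sites, 18 positions within 167 bp from 3077801 to 3077967, with a stretch mean of only 44.5%. Site means there ranged from 28.2% at 3077914 to 80.9% at 3077967, the last position of the run. Less than 1 kb further, the 7 sites from 3078836 to 3078879 had a mean of 96.9%. Beyond it, levels under 70% returned at 3084025 to 3084048 (2 sites, 37.6%), 3085741 to 3085753 (3 sites, 55.8%), 3094728 to 3094786 (6 sites, 50.1%) and 3096034 to 3096079 (6 sites, 62.3%), with a single high stretch of 4 sites at 3090428 to 3090451 (93.0%) between them. On the other side of the large gap the stretch means were 95.4% (3108195 to 3108241, 4 sites), 94.5% (3111845 to 3111876, 3 sites), 89.0% (3119475 to 3119512, 2 sites), 95.5% (3124207 to 3124773, 11 sites), 89.3% (3126730 to 3127492, 15 sites) and 95.6% (3136766 to 3136772, 2 sites).

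The spread between libraries followed the level. Among AGO2 sites with a mean over 90% the median SD between libraries of a group was 3.20 percentage points, and among those at 20% to 90% it was 10 points, compared with 3.25 and 9.17 points for sites of the whole table at the same levels. The smallest range over the 16 libraries was 3.92 points at 3127301, where all values were between 96.1% and 100%. The largest was 57.2 points at 3077801 in the 18-site stretch, from 15.6% in CON_P library 30 to 72.7% in CON_P library 18, so that both ends lay within the same group.

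Sites of several stretches at intermediate levels varied together across the libraries. The mean Pearson r between sites of the same stretch, over 16 libraries, was 0.77 at 3094728 to 3094786, 0.58 at 3096034 to 3096079, 0.47 at 3085741 to 3085753, 0.46 in the 18-site stretch and 0.12 in the first stretch. In the 9 stretches of 3 or more sites with a mean over 70% it ranged from -0.27 to 0.41. Over all 437 pairs of AGO2 sites in the same stretch the mean r was 0.26, and over the 4816 pairs in different stretches it was 0.01. Sites of a stretch can be read from the same fragments, and these values are a description without a test. The stretches themselves did not move as 1 unit. Among the 5 stretches of 3 or more sites with a mean under 70%, the mean r of the 10 pairs was 0.06, ranging from -0.27 to 0.50.

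Averaged over its 103 sites, AGO2 did not separate the groups by diet or by outcome. The gene mean was 75.3% ± 0.481 (SD, n = 4) in MET_P, 76.0% ± 3.21 in MET_noP, 76.4% ± 2.88 in CON_P and 75.0% ± 1.72 in CON_noP. By library it was 80.1% (14), 77.2% (18), 74.6% (26) and 73.7% (30) in CON_P. In CON_noP it was 73.2% (12), 77.4% (16), 74.7% (24) and 74.8% (28). MET_P gave 75.7% (15), 75.7% (19), 75.3% (27) and 74.7% (31), and MET_noP gave 76.6% (13), 71.9% (17), 79.7% (25) and 76.0% (29). All 4 groups overlapped, and the MET_P libraries lay closest together.

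**Figure D2:**
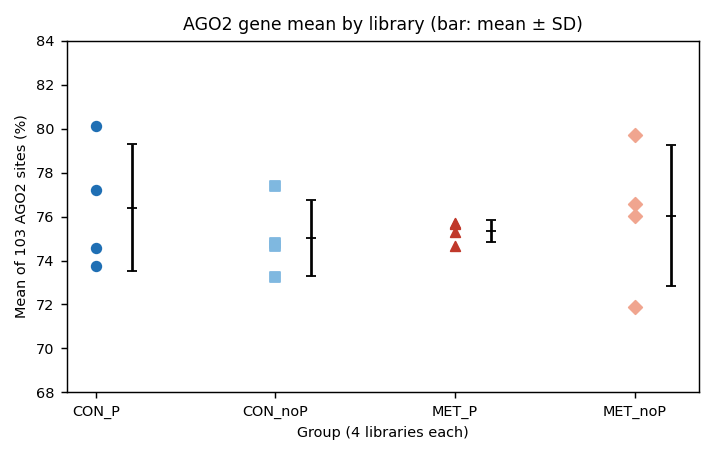
Mean methylation of the 103 AGO2 sites in each library (points) by group, with the group mean ± SD of 4 libraries. The axis covers 68% to 84% and does not begin at 0. The 4 groups overlap, with the MET_P libraries between 74.7% and 75.7%.

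Within each diet and each outcome, the difference in gene mean was smaller than 1.5 percentage points. It was 1.38 points for CON_P minus CON_noP (two-sided exact permutation test, p = 0.486), -0.699 points for MET_P minus MET_noP (exact p = 0.6), -1.06 points for MET_P minus CON_P (exact p = 0.629) and 1.02 points for MET_noP minus CON_noP (exact p = 0.629). Pooled over outcomes, MET minus CON was -0.0238 points (exact p = 0.983). Pooled over diets, P minus noP was 0.341 points (exact p = 0.772). The outcome difference in MET minus that in CON, the interaction, was -2.08 points (exact p = 0.362). Its exact test shuffles outcomes within each diet and so assumes no outcome difference in either diet, not merely equal differences. After Benjamini-Hochberg adjustment over these 7 tests the lowest p was 0.880. Single libraries moved these small differences. Without CON_P library 14, CON_P minus CON_noP was 0.149 points and the interaction -0.848 points, and neither changed sign without any 1 library. Without MET_noP library 25 the interaction was -0.859 points, and without MET_noP library 17 it was -3.46 points. MET_P minus MET_noP was -2.08 points without MET_noP library 17 (exact p = 0.0286, the smallest that 3 against 4 libraries can give) and 0.523 points without MET_noP library 25 (exact p = 0.886). MET_P minus CON_P was 0.169 points without CON_P library 14, and MET_noP minus CON_noP was -0.205 points without MET_noP library 25. The pooled diet difference was above 0 without CON_P library 14 or 18, CON_noP library 16, MET_P library 31 or MET_noP library 17, and the pooled outcome difference was below 0 without CON_P library 14 or MET_noP library 17.

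For single sites, methylation was compared as the M value, log2 of methylated over unmethylated percent with 1 percentage point added to each, with limma over all 199395 sites and Benjamini-Hochberg adjustment over all of them. No AGO2 site passed an adjusted p of 0.05 in any of the 4 comparisons of 2 groups, nor did any site of the whole table. At an unadjusted p under 0.05 there were 17 calls in AGO2, at 14 sites, and 89 sites had no call. In 7 of the 17 calls all 4 libraries of 1 group stood at 100%, which leaves that group without spread. The 4 comparisons share groups pairwise and are not independent.

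Between pregnancy outcomes under the control diet, 4 AGO2 sites were at an unadjusted p under 0.05 with limma, 3 of them higher in CON_P and 1 lower, where 2.53% of all sites were higher and 1.4% lower. The count was 7 without CON_noP library 12. CON_P was higher in mean at 58 of the 103 sites (56.3%, against 55.4% of all sites), and the median difference was 0.879 points against 0.525 points in the whole table. The groups did not overlap at 2 AGO2 sites, 3077871 and 3078840, and at 1.99% of all sites. The other calls, 3068953 and 3136772, were highly methylated positions with overlapping groups, at 92.2% and 88.1% in CON_noP and 100% and 97.9% in CON_P. These and the other sites named only by number below were chosen after their values were seen.

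Position 3077871, in the 18-site stretch, was among the positions that the study lists for AGO2, a list made from these same libraries. Its values were 38.5% (14), 54.5% (18), 31.6% (26) and 25% (30) in CON_P and 17.3% (12), 20% (16), 23.4% (24) and 13.2% (28) in CON_noP. In MET_P they were 22.7% (15), 25% (19), 31% (27) and 31.8% (31), and in MET_noP 31.6% (13), 26.7% (17), 68.2% (25) and 38.0% (29). CON_noP stood below both CON_P and MET_noP without overlap, and overlapped with MET_P. The mean difference was 18.9 points for CON_P minus CON_noP (limma adjusted p = 1) and 22.6 points for MET_noP minus CON_noP (limma adjusted p = 0.906). In MET the order of the outcomes was the opposite, with MET_P minus MET_noP at -13.5 points and overlapping groups (limma adjusted p = 0.946). Without MET_noP library 25, the highest of the 16 at this site, MET_noP minus CON_noP was 13.6 points and MET_P minus MET_noP was -4.46 points. For groups of 4 that do not overlap, the exact permutation p is 0.0286, the smallest this design allows, and since such sites were named for that separation it adds nothing to it.

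The neighbouring position 3077870, taken as the same CpG on the other strand, did not show the separation. Its group means were 30.3% ± 8.06 in MET_P, 34.6% ± 10.6 in MET_noP, 36.2% ± 8.17 in CON_P and 34.3% ± 10.9 in CON_noP (SD, n = 4). CON_P minus CON_noP was 1.87 points there (exact permutation p = 0.83) and MET_noP minus CON_noP was 0.265 points (exact p = 0.971). With both positions averaged, the differences were 10.4 points (exact p = 0.0571) and 11.4 points (exact p = 0.200). The level of the 2 positions itself differed by 10.9 points in a library on average and by up to 30 points. The median was 7.23 points over all 10344 pairs of adjacent positions in the table. Those pairs are of any level, and not all of them are 2 strands of 1 CpG. Tested directly, the change from CON_noP to CON_P was 17.1 points larger at 3077871 than at 3077870 (exact p = 0.171). The corresponding value for MET_noP and CON_noP was 22.4 points (exact p = 0.0571). This comparison was added after the values had been seen. Other sites of the stretch also differed by part. At every site from 3077801 to 3077842, CON_P and MET_noP were higher in mean than CON_noP, as at 3077871. From 3077888 to 3077967, MET_noP was lower in mean than CON_noP except at 3077914. These parts were likewise seen in the values, and the difference between them was not tested.

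Position 3077819, the other listed site of this stretch, had means of 36.3% in MET_P, 47.4% in MET_noP, 47.4% in CON_P and 30% in CON_noP. Its values were 56.9% (14), 58.8% (18), 47.4% (26) and 26.7% (30) in CON_P and 28.8% (12), 36.7% (16), 37.5% (24) and 17% (28) in CON_noP, so that CON_P library 30 lay within CON_noP. The difference of 17.4 points did not exceed the spread (exact permutation p = 0.143, limma adjusted p = 1). Without CON_P library 30 it was 24.4 points (exact p = 0.0286).

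Between outcomes under methionine, 4 AGO2 sites were called with limma at an unadjusted p under 0.05, 1 higher in MET_P and 3 lower, where 2.57% of all sites were higher and 2.55% lower. The count was 7 without MET_noP library 13 and 8 without MET_P library 31, MET_noP library 17 or MET_noP library 25. MET_P was higher in mean at 46 sites (44.7%, against 51.8% of all sites). The groups did not overlap at 2 sites, 3067516 and 3094748, and at 2.9% of all sites. The 3 lower calls, 3111845, 3127482 and 3127492, were positions at 100% in all 4 MET_noP libraries and 97.5% to 97.7% on average in MET_P, differences of 2.33 to 2.52 points. At 3094748 MET_P ranged from 24.1% to 30.8% and MET_noP from 33.3% to 35.5%, without a call.

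Position 3067516, the first AGO2 site and also on the study's list, had the largest difference. It stood at 73.3% (15), 69.4% (19), 80.9% (27) and 82.4% (31) in MET_P and at 58.8% (13), 35.7% (17), 45.0% (25) and 53.8% (29) in MET_noP. In CON_P it was 56.0% (14), 30.4% (18), 54.5% (26) and 47.1% (30), and in CON_noP 29.4% (12), 36.4% (16), 84.9% (24) and 48.0% (28). Every MET_P library was above every MET_noP and CON_P library, while CON_noP library 24 was the highest of all 16. MET_P exceeded MET_noP by 28.1 points (1.79 ± 0.455 in M, SE; limma adjusted p = 0.817) and CON_P by 29.5 points (1.87 ± 0.490; limma adjusted p = 0.827). The position 3 bp away, 3067519, had group means of 94.7% to 96.4%, and 3067526, 10 bp away, had 54.7% in MET_P, 47.9% in MET_noP, 42.3% in CON_P and 41.5% in CON_noP.

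**Figure D3:**
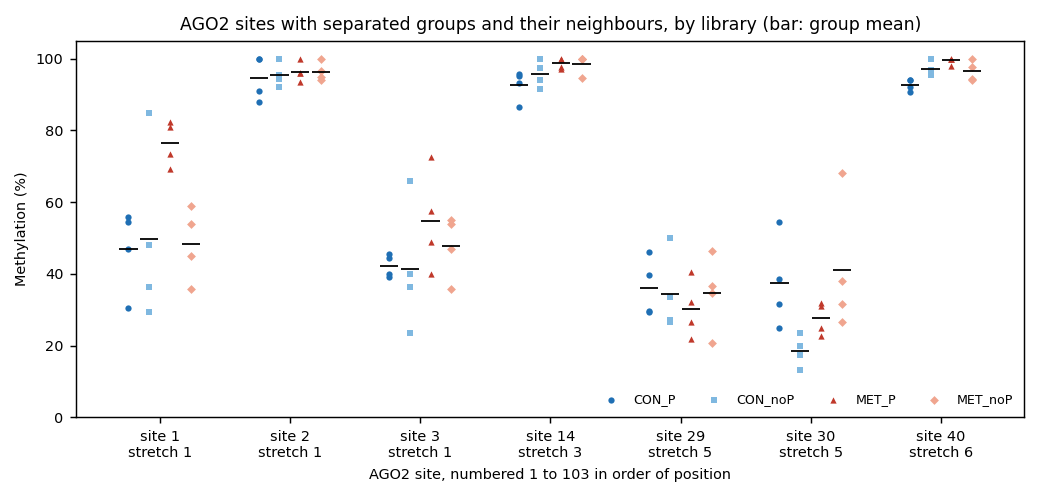
Methylation of 7 AGO2 sites by library, with the group mean as a bar. Sites 1 to 3 are positions 3067516, 3067519 and 3067526, site 14 is 3069536, sites 29 and 30 are 3077870 and 3077871, and site 40 is 3078840. At site 1 every MET_P library lies above every MET_noP and CON_P library, while these groups overlap at sites 2 and 3. At site 30 every CON_noP library lies below every CON_P and MET_noP library, while they overlap at site 29.

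The diets were compared within each outcome. Among cows that became pregnant, 8 AGO2 sites were called at an unadjusted p under 0.05 with limma, 4 higher and 4 lower in MET_P than in CON_P, where 3.06% of all sites were higher and 2.77% lower. The count was 5 without MET_P library 19 and 13 without CON_P library 14. At 4 sites, all higher in MET_P, the groups did not overlap, compared with 3.09% of all sites. These were 3067516, 3069536, 3076934 and 3078840. The lowest adjusted p of any AGO2 site belonged to 3078840, in the 7-site stretch next to the 18-site stretch. It stood at 100% in 3 MET_P libraries and at 98.1% in library 31, against 90.7% (14), 92.0% (18), 94.1% (26) and 93.9% (30) in CON_P. The difference was 6.83 points, or 2.75 ± 0.491 in M (SE; limma adjusted p = 0.348). In CON_noP this site was at 100% (12), 96.4% (16), 96.8% (24) and 95.6% (28), and CON_P stood below it without overlap by 4.50 points. Position 3069536 was at 97.2% to 100% in MET_P and at 86.7% to 95.7% in CON_P, a difference of 6.03 points, and 3076934 was at 96% to 100% and 86.8% to 95.8%.

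The 4 sites lower in MET_P were 3078846, 3078870, 3119512 and 3127459. At 3 of them CON_P was at 100% in every library and MET_P at 96.3% to 97.8% on average, and at 3119512 MET_P was at 82.5% and CON_P at 92.4%. Thus 3078840 was higher in MET_P, and 3078846 and 3078870, 6 bp and 30 bp further in the same stretch, were lower.

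Among cows that did not become pregnant, 1 AGO2 site, 3077871, was called higher in MET_noP than in CON_noP and none lower, where 3.36% of all sites were higher and 1.77% lower at an unadjusted p under 0.05 with limma. The count was between 2 and 7 when any of MET_noP libraries 13, 17, 25 and 29 or CON_noP libraries 12, 16 and 28 was left out. The groups did not overlap at that site nor at 3096072 (65.2% to 67.4% in MET_noP, 68.4% to 78.4% in CON_noP), against 2.75% of all sites. MET_noP was higher in mean at 57 sites (55.3%, against 57.3% of all sites). With all 16 libraries in 1 limma model, 5 AGO2 sites were at an unadjusted p under 0.05 for diet, 3 for outcome and 6 for the interaction, against 6.06%, 3.83% and 5.25% of all sites. None of these passed adjustment, and of all sites 0, 1 and 2 did.

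Stretch means, which average over neighbouring sites, were compared in the same way. Of the 14 AGO2 stretches with 3 or more sites, 0 were at an unadjusted p under 0.05 with limma for CON_P and CON_noP and 0 for MET_noP and CON_noP, where 3.53% and 5.6% of the 26059 stretches of the table were. There was 1 for MET_P and MET_noP and there were 2 for MET_P and CON_P, where the table had 5.34% and 6.55%. None passed adjustment, and no stretch of the table did in these 4 comparisons. The count for MET_P and MET_noP was 0 without MET_P library 31 and 2 without MET_P library 27 or MET_noP library 29, and that for MET_P and CON_P was 1 without MET_P library 15, MET_P library 31 or CON_P library 26. The counts of 0 became 1 without CON_noP library 28 in both comparisons and without CON_noP library 12 for MET_noP and CON_noP. The first stretch (3067516 to 3067526) had means of 75.9% ± 5.92 in MET_P, 64.2% ± 5.78 in MET_noP, 61.3% ± 3.4 in CON_P and 62.2% ± 13.6 in CON_noP (SD, n = 4). MET_P exceeded MET_noP by 11.7 points (limma adjusted p = 0.927) and CON_P by 14.5 points (limma adjusted p = 0.753). Without position 3067516 the other 2 sites gave 3.43 points (exact permutation p = 0.486) and 7.08 points (exact p = 0.0571), a comparison added after seeing the values. The other stretch, 3108195 to 3108241, stood at 97.9% ± 1.66 in MET_P and 94.9% ± 2.61 in CON_P with overlapping libraries, and all 4 of its sites were higher in mean in MET_P (limma adjusted p = 0.753).

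**Figure D4:**
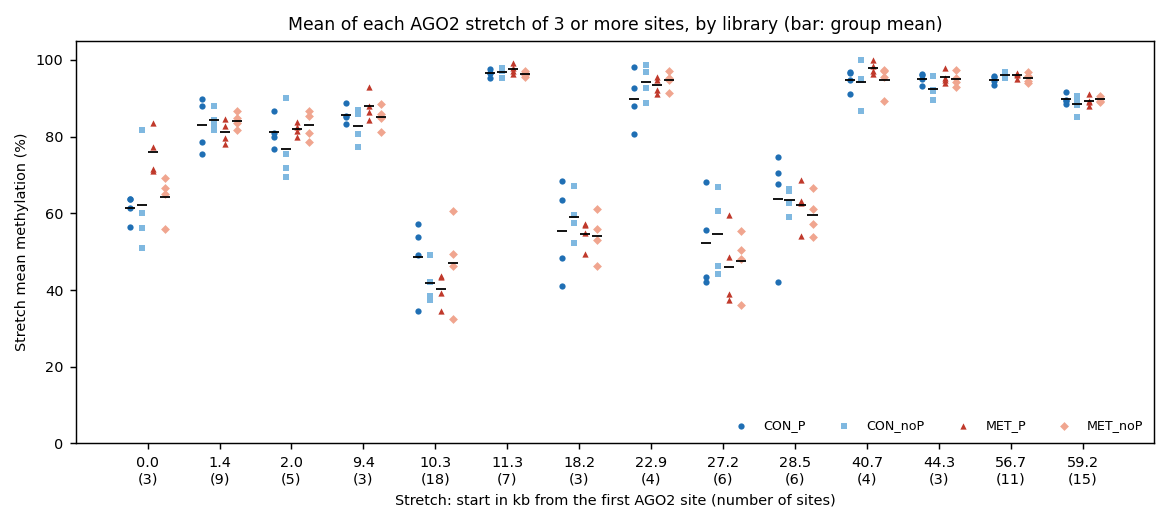
Mean methylation of the 14 AGO2 stretches with 3 or more sites, by library and group, with the group mean as a bar. Stretches are named by the distance of their start from the first AGO2 site in kb, with the number of sites in parentheses. The libraries spread widely in the 5 stretches under 70% and narrowly in those over 90%, and the first stretch is the only one of the 14 in which every MET_P library lies above every MET_noP and CON_P library.

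The 18-site stretch showed opposite outcome differences in the 2 diets, within the spread of the libraries. Its means were 48.7% ± 10 in CON_P and 41.8% ± 5.36 in CON_noP, with CON_P higher at 15 of the 18 sites. They were 40.2% ± 4.33 in MET_P and 47.2% ± 11.6 in MET_noP, with MET_P higher at 1 of the 18 sites. The stretch stood at 57.2% (14), 49.2% (18), 53.9% (26) and 34.4% (30) in CON_P and at 37.4% (12), 49.2% (16), 42.2% (24) and 38.4% (28) in CON_noP. It stood at 39.4% (15), 43.6% (19), 34.4% (27) and 43.4% (31) in MET_P and at 46.3% (13), 32.4% (17), 60.6% (25) and 49.3% (29) in MET_noP. The outcome differences were 6.89 points in CON (exact permutation p = 0.257) and -6.96 points in MET (exact p = 0.314). The interaction, tested for the stretches after the values had been seen, was -13.8 points (exact p = 0.109). It was -18.6 points without CON_P library 30 (exact p = 0.0249), -18.8 points without MET_noP library 17 (exact p = 0.0237) and -9.37 points without MET_noP library 25 (exact p = 0.220). The 18 sites are not separate replicates. On average they varied together (mean r 0.46), but not throughout the stretch. At 3077801 CON_P library 18 stood at 72.7% and CON_P library 26 at 21.1%, while at 3077888 they stood at 11.8% and 53.8%. CON_P was higher in mean than CON_noP at every site from 3077801 to 3077842 and lower at 3077888, 3077904 and 3077962. These parts were seen in the values and were not tested apart.

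Some marker genes of cell types moved with this stretch across the libraries. Over the 15 marker genes with a gene mean, Pearson's r with the stretch over the 16 libraries ranged from -0.79 to 0.83 with a median of -0.06, and 4 had an r beyond 0.5 in size. The 3 with the largest were named after their values were seen, so their r describes the choice. The gene mean of ITGB2, an integrin chain of leukocytes, which is also among the 5 genes picked below as most like AGO2, had an r of 0.83, ELF3, an epithelial transcription factor, 0.82, and SPI1, a transcription factor of myeloid and B cells, -0.79. MET_noP library 25 was the highest of the 16 both in the stretch (60.6%) and in ITGB2 (50.4%), and it was the lowest in SPI1 (55.6%). Methylation of a gene does not tell how many cells of a type a sample holds, and the part of cell composition in the stretch was not tested. Of the marker lists, 7 of 12 leukocyte, 3 of 8 epithelial and 5 of 7 stromal genes had at least 2 sites. The mean of the leukocyte list was 65.5% to 68.9% in MET_P, 60.9% to 67.2% in MET_noP, 57.9% to 66.8% in CON_P and 58.8% to 64.6% in CON_noP. The epithelial list was at 18.9% to 25.7%, 14.8% to 32.9%, 18.1% to 31.2% and 18.6% to 26.4% in the same order, and the stromal list at 41.2% to 43.5%, 39.7% to 44.7%, 38.1% to 43.2% and 39.6% to 44.3%. Over the measured genes of each list, the r with the stretch ranged from -0.79 to 0.83 for leukocyte genes. It ranged from 0.12 to 0.82 for epithelial and from -0.52 to 0.29 for stromal genes. With the AGO2 gene mean in place of the stretch, r ranged from -0.54 to 0.87, 0.25 to 0.75 and -0.42 to 0.48 in the same order.

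**Figure D5:**
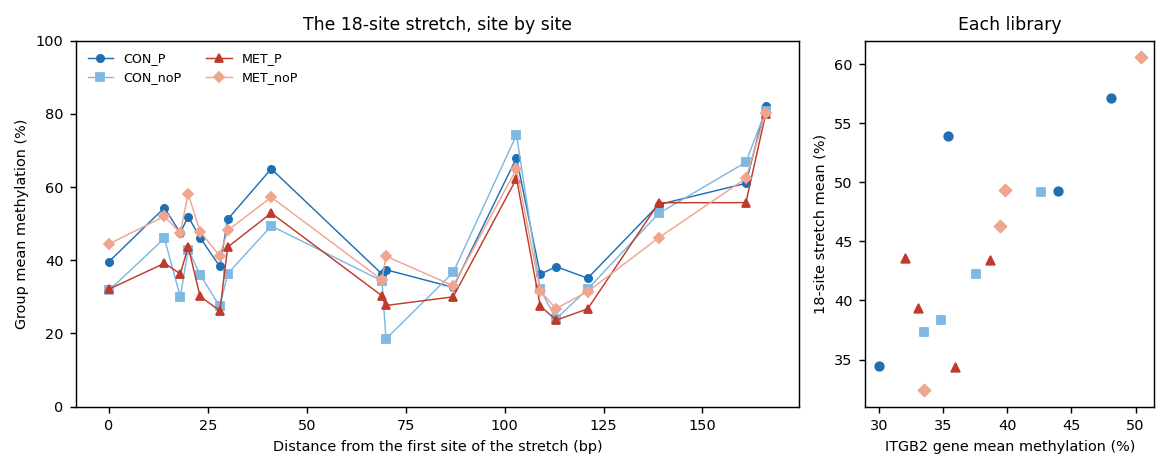
The 18-site stretch of AGO2. The left panel plots the mean of each group (4 libraries) against the distance in bp from its first site. The right panel plots the stretch mean of each library against the gene mean of ITGB2, both in percent on axes that do not begin at 0. The level rises and falls from site to site, with means over the 16 libraries of 67.4% at 3077904 and 28.2% at 3077914. It ends near 80.9% in every group. MET_noP library 25 is highest on both axes of the right panel.

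Other genes of the small RNA pathway had no larger share of calls. Of 84 listed genes, 40 had 2 or more sites and thus a gene mean. In the gene-level limma fit, 0 of the 40 were at an unadjusted p under 0.05 for CON_P and CON_noP (3.49% of all 8708 genes) and 0 for MET_noP and CON_noP (6.4%). For MET_P and MET_noP it was 1 gene (5.57% of all), DIS3L2, an exoribonuclease that degrades uridylated precursors of let-7 microRNAs, at 96.5% and 94.5% (limma adjusted p = 0.809). For MET_P and CON_P it was 1 gene (7.25% of all), AJUBA, a LIM domain protein, at 10.2% and 8.39% (limma adjusted p = 0.683). The median differences of the 40 genes were 0.511, 0.0514, 0.389 and 0.366 points in these comparisons in the order given, against 0.440, 0.632, 0.283 and 0.526 points over all genes. No gene of the table passed adjustment.

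AGO2's own relatives and partners covered the range of levels. AGO1 (4 sites) had a mean of 52.5% and AGO3 (2 sites) one of 98.5%, while AGO4 had no gene mean. DICER1 (13 sites), which cuts precursors into mature microRNAs, was at 77%, and DROSHA (12 sites), which releases these precursors in the nucleus, at 96%. The group means of AGO1 lay between 51.8% and 53.0% and those of DICER1 between 76.8% and 77.3%. Those of DROSHA were 97.2% ± 1.51 in MET_P, 96.7% ± 1.83 in MET_noP, 95.1% ± 1.77 in CON_P and 95.0% ± 4.05 in CON_noP (SD, n = 4). AGO2 had more sites than any of these 4 genes, and the number of covered sites sets how far a gene mean describes the gene.

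The genes around AGO2 had mean levels of 50.9% to 84.2%. Below it on chromosome 14 lay PTK2 (48 sites, 84.2%), a focal adhesion kinase, then DENND3 (54 sites, 77.3%) and SLC45A4 (85 sites, 79.7%). Above it lay TRAPPC9 (270 sites, 83.3%), a subunit of a vesicle trafficking complex, KCNK9 (35 sites, 50.9%), a potassium channel, and FAM135B (14 sites, 78.4%). The nearest sites of PTK2 and TRAPPC9 were 31.8 kb and 74.2 kb away. None of the 6 genes had an adjusted p under 0.05 in any of the 4 comparisons, the lowest being 0.735 for SLC45A4 in MET_P and CON_P.

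TRAPPC9 was also the gene whose mean ran most like that of AGO2 over the 16 libraries. Among 3465 genes with 10 or more sites, Pearson's r with the AGO2 gene mean was 0.90 for TRAPPC9, 0.89 for PRKAR1B, a regulatory subunit of protein kinase A, 0.88 for ENSBTAG00000049099, 0.88 for REV1, a translesion DNA polymerase, and 0.87 for ITGB2, with a median of 0.15 over all 3465. KCNK9 had an r of 0.71, while PTK2 had -0.45, DENND3 0.45, SLC45A4 -0.26 and FAM135B 0.18. The AGO2 mean had an r of 0.54 with the mean over all sites of a library. With that library mean subtracted, the same 5 genes had the 5 highest values in another order. REV1 had 0.851, PRKAR1B 0.849 and TRAPPC9, at rank 3, 0.846. These values describe the order of 16 libraries and carry no test.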

How the data were processed

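RRBS was performed on 16 endometrial cytobrush libraries, 4 per group. As stated by the study, the authors trimmed reads with Trim Galore, aligned them with Bismark to ARS-UCD1.2, merged runs with SAMtools and computed the percent methylation per position with SeqMonk. They kept positions with at least 10 reads and discarded those without a valid value or with a zero value. The deposited values are percent, without counts or coverage. Groups were taken from the column headings. The replicate numbers of the labels could not be tied to columns.

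Percentages were changed to M values, log2((percent + 1)/(100 - percent + 1)), and compared with limma 3.58.1 in R 4.3.3 for sites, for stretches (gap over 500 bp, at least 3 sites) and for genes (at least 2 sites, leaving out the 13 symbols shared by several genes in the likeness and pathway comparisons), with Benjamini-Hochberg adjustment over all of the kind. Each comparison of 2 groups used its 8 libraries. Single values were compared with two-sided exact permutation tests (35 distinct splits for 4 against 4, within strata for pooled tests). For the interaction, outcomes were shuffled within each diet, which assumes no outcome difference in either diet. Adjacent positions were taken as both strands of a CpG. Scripts were tested on simulated data.

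The sites named were those listed by the study for AGO2, up to 3 per comparison with the largest difference among those at an unadjusted p under 0.05 whose groups did not overlap, and those with the lowest and highest mean and range. Genes named were AGO1, AGO3, AGO4, DICER1, DROSHA, pathway genes at an unadjusted p under 0.05, 3 neighbours on each side and the 5 genes most like AGO2. The members and lists were chosen with earlier results of these data known. From the study's own lists of differentially methylated positions the AGO2 positions were taken, and no values. The closing section gives the alternatives that were tried.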

Additional observations from a re-analysis of the deposited data

Results flagged for a closer look

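At 3 of the named sites the interaction had an exact permutation p under 0.05. The interaction was -32.4 points at 3077871 (exact permutation p = 0.00367), -28.6 points at 3077819 (exact p = 0.0355) and 7.52 points at 3078840 (exact p = 0.00286). All 3 sites were named for differences in the same libraries, so these p-values are not independent of that choice. The interaction had an adjusted limma p of 0.938 at each of these sites. Among the 103 AGO2 sites, 6 were at an unadjusted limma p under 0.05 for the interaction, against 5.25% of all sites. The exact test shuffles outcomes within each diet, so it tests for no outcome difference in either diet rather than for equal differences. At 3077819 the exact p was 0.0502 to 0.0702 when any of CON_P libraries 14, 18 and 26, CON_noP libraries 12 and 28, MET_P libraries 15 and 27 or MET_noP libraries 25 and 29 was left out. A single library stood far from the other 3 of its group in 7 of 96 groups tested. In each of the 7 the other 3 libraries were at 100%, so that any lower value would have stood apart, and the usual chance share of about 1 in 20 does not apply to them. The single values were 96% (CON_noP library 24) and 97.0% (MET_P library 27) at 3068939, 94.6% (MET_noP library 13) at 3069536 and 98.1% (MET_P library 31) at 3078840. At 3127301 they were 96.1% (CON_P library 14), 96.3% (CON_noP library 24) and 98.1% (MET_noP library 29).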

How the results depend on the processing

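No AGO2 site reached an adjusted p of 0.05 under any of the alternatives run, whether percentages, an offset of 0.1, a mean-variance trend, all libraries in 1 model, median-centred libraries, sites at 10% to 90%, merged strands, a block or a library left out. Counts at an unadjusted p under 0.05 moved. For CON_P and CON_noP (4 sites) the count was 1 among sites at 10% to 90%, and 4 to 7 without 1 library. For MET_P and MET_noP (4) it was 2 among sites at 10% to 90%, and 4 to 8 without 1 library. For MET_P and CON_P (8) it was 3 with percentages, 5 in 1 model, 2 among sites at 10% to 90%, and 5 (without MET_P library 19) to 13 (without CON_P library 14). For MET_noP and CON_noP (1) it was 3 with percentages, 2 median-centred, 0 with strands merged, and 1 to 7 without 1 library. Gene mean differences turned sign under several alternatives, and the cause was not tested. With stretches weighted equally, MET_P minus MET_noP was 0.891 points, MET_P minus CON_P 0.765 and MET minus CON 0.854. With the median over sites, MET_P minus CON_P was 0.483 points and MET minus CON 0.842, and with M values MET minus CON was 0.0395. With the library mean subtracted, MET_noP minus CON_noP was -0.285 points and P minus noP -0.142. Leaving out 1 library gave 0.149 to 2.27 points for CON_P minus CON_noP, -2.08 to 0.523 for MET_P minus MET_noP, -1.95 to 0.169 for MET_P minus CON_P, -0.205 to 2.4 for MET_noP minus CON_noP, -0.634 to 0.666 for MET minus CON, -0.349 to 0.952 for P minus noP and -3.46 to -0.848 for the interaction. The count of AGO2 stretches was 0 for MET_P and MET_noP and 1 for MET_P and CON_P with a gap of 2000 bp, and 1 for MET_P and CON_P with percentages. Without 1 library it was 0 to 1, 0 to 2, 1 to 3 and 0 to 1 in the order of the comparisons above. With percentages, 1 pathway gene was called for MET_noP and CON_noP. With at least 20 sites per gene, 3 of the 5 genes most like AGO2 were shared. A higher coverage minimum was not run because coverage was not used here.

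Libraries of consecutive numbers formed 4 sets with 1 of each group, but their deviations from the group means had correlations of -0.132 to 0.105 over all sites, and 4 of 16 libraries were closest to their own set, so the sets were not taken as pairs. With the set as a block, 7 AGO2 sites were at an unadjusted p under 0.05 for MET_P and MET_noP and 4 for MET_noP and CON_noP, and 2 stretches for MET_P and MET_noP. The unknown depth limits every single percentage.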

Other observations

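On the side of AGO2 with lower positions, the libraries lay closest together in MET_P. Over its 66 sites the mean was 65.4% ± 0.459 in MET_P, 66.7% ± 5.04 in MET_noP, 67.3% ± 4.38 in CON_P and 65.7% ± 2.06 in CON_noP (SD, n = 4). On the other side of the large gap, over 37 sites, it was 93.0% ± 0.699, 92.8% ± 0.158, 92.7% ± 0.447 and 91.7% ± 1.60 in the same order. The difference in spread was not tested. Of the 1648 AGO2 values, 335 (20.3%) were at 100%, compared with 12.2% of all values of the table.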
